A study of Canis lupus familiaris with 8 samples.

Results

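The transcriptome of MDCK GII cells, an epithelial line from dog kidney, was described in the unstretched control wells of a stretch experiment. These were 4 of 8 wells in all, chosen by their control label alone, and every gene of the count table was described in them. All 8 wells held the same line without any named genetic change. The other group, 4 wells kept under a static strain of 18% for 2 hours, was not used here. All wells shared their culture: medium with 10% serum, a flexible silicone (PDMS) membrane coated with collagen type 1 at 0.05 mg/mL, plating in medium with 50 µM calcium that was replaced by regular medium, and growth overnight. RNA was extracted from whole wells and sequenced as stranded polyA libraries. The labels call the wells technical replicates divided over separate 6-well devices, so the spread given here is that between wells of 1 line and may be technical.

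MDCK cells are a standard model of a polarised kidney epithelium. In a nephron, the proximal tubule reabsorbs filtered solutes, the thick ascending limb and distal convoluted tubule move salt and divalent ions, and the collecting duct adjusts water, potassium and acid through principal and intercalated cells. Neighbouring cells are held by E-cadherin in adherens junctions, sealed by claudins in tight junctions and tied to keratin filaments by desmosomes. EGF family ligands are made as membrane proteins, are released by shedding and bind receptors of the ERBB family.

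Total counts were 27208551, 30655036, 29950328 and 32240201 in control replicates 1 to 4. Levels are given as TPM (length-scaled transcript shares, which sum to the same total in every well), computed from each gene's counts and exon length, as mean ± SD over 4 wells. A gene was called detected when it reached at least 1 TPM in every well, which 12646 of 37952 genes did (33.3%), among them 11868 of 21175 protein-coding genes (56.0%) and 479 of 13367 lncRNA genes. The detected genes had a median level of 21.8 TPM, all protein-coding genes 4.001 TPM, and 151 genes stayed at or above 1000 TPM in every well. Log2 levels of the detected genes correlated between wells across 12646 genes, which are not independent replicates. Pearson's r was 0.996 between replicates 1 and 2, 0.995 between 3 and 4, 0.994 between 2 and 4, 0.993 between 1 and 4, 0.991 between 2 and 3 and 0.990 between 1 and 3. Replicate 3 was thus closest to replicate 4 and farthest from replicate 1. It was the highest well for 4046 of the 11585 genes whose spread was examined (34.9%) and for each of the 12 genes that varied most. Where it moved a described mean by over 1.5 times, the value without it is given.

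SPP1 was the most abundant transcript of the table. It encodes osteopontin, a secreted phosphoprotein that binds integrins, and measured 16180.4, 16978, 15470.1 and 17046 TPM in replicates 1 to 4 (16419 ± 745 TPM, n = 4; chr32:28630350-28638599). SPP1 alone held 1.64% ± 0.0745 of all TPM. Its level was above that of every other gene in each well.

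LGALS3, the carbohydrate-binding lectin galectin-3, measured 6785, 6708, 7341 and 7187 TPM (7005 ± 307 TPM, n = 4; chr8:31288737-31299778). Its wells lay within a narrow band far below those of SPP1, and the SPP1 to LGALS3 ratio of TPM was 2.35 ± 0.176. The related galectin-1 gene LGALS1 measured 36.3 ± 7.13 TPM.

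Further genes among the 20 most abundant, ribosomal proteins and unnamed loci left aside, fell into a few families. The iron storage subunits FTH1 and FTL measured 4940.1 ± 69.4 and 4909 ± 319 TPM. The membrane- and calcium-binding genes S100A6, ANXA2 and ANXA1 measured 4839 ± 95.3, 4824 ± 293 and 3889 ± 207 TPM. ANXA1, a phospholipid-binding annexin, was at 3912, 4167, 3688 and 3788 TPM in the 4 wells (chr1:85425388-85444242), and all of them lay below every ANXA2 well. Cytoskeletal genes of this group were TMSB10, which binds actin monomers, at 4599 ± 93.7 TPM, ACTG1 (gamma-actin) at 3780.1 ± 396 TPM and TUBA1C (an alpha-tubulin) at 2763 ± 43.4 TPM. CLU, the secreted chaperone clusterin, and CAV1, the coat protein of caveolae, measured 3063 ± 217 and 2949.9 ± 85.5 TPM.

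NQO1, a quinone reductase and a classical target of the transcription factor NRF2, was in the same range at 2928, 2915, 2889 and 2689 TPM (2855 ± 112 TPM, n = 4; chr5:80560166-80571660). Replicate 4 was the lowest and the other wells lay close together. PRDX1, a peroxide-reducing peroxiredoxin, measured 3179.6 ± 106 TPM, PPIA (cyclophilin A) 3202 ± 40.03 TPM and PTMA (prothymosin alpha) 2854 ± 171 TPM. A second record of the ribosomal gene RPL32, named RPL32_1 in the table, measured 2452 ± 88.9 TPM, while the record named RPL32 had 0 counts in every well. FTH1, FTL, ACTG1, PPIA, PTMA, TMSB10, TUBA1C and the ribosomal genes belong to families with near-identical copies, so their levels are uncertain where reads could be split or dropped.

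**Figure D1:**
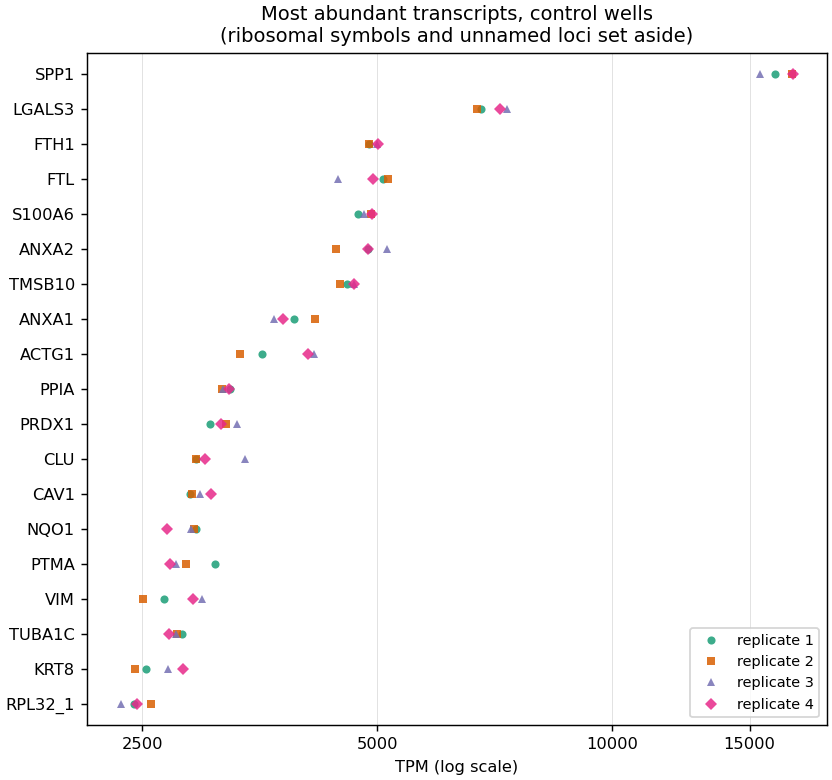
TPM (log axis) of genes among the 20 most abundant transcripts left once genes with plain ribosomal protein symbols and unnamed loci were set aside, with 1 marker per control well. SPP1 lies above every other gene shown in all 4 wells, between 15470.1 and 17046 TPM.

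The 10 most abundant genes together held 6.44% ± 0.153 of TPM and the 100 most abundant 24.8% ± 0.336. Of the latter, 42 had ribosomal protein symbols and 21 were loci without a symbol. The 79 ribosomal protein genes held 11.03% ± 0.255 of TPM and the 23 annexin and S100 genes 1.85% ± 0.0205. The 70 nuclear genes of oxidative phosphorylation held 1.66% ± 0.0451, and the 21 glycolysis genes 0.908% ± 0.0219. As shares of counts, where long transcripts weigh more, the same groups held 4.17% for ribosomal proteins, 1.05% for annexins and S100 proteins and 0.839% for oxidative phosphorylation.

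Genes that define single nephron segments were mostly not detected, whichever segment they mark. In the proximal tubule list 5 of 24 genes were detected (20.8%), in the thick ascending limb list 2 of 11 (18.2%), in the distal convoluted tubule list 2 of 8 (25%), in the principal cell list 5 of 14 (35.7%) and in the intercalated cell list 2 of 16 (12.5%). Each share lay below the 56.0% of all protein-coding genes that were detected. RNA of whole wells cannot tell fewer cells of a type from less RNA per cell.

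The proximal tubule genes that were detected were enzymes and the endocytic receptor CUBN. GGT1, the brush border enzyme gamma-glutamyltransferase, measured 37.3 ± 0.782 TPM, the inositol-degrading oxygenase MIOX 21.2 ± 2.40 TPM and the gluconeogenic FBP1 17.8 ± 2.19 TPM. CUBN measured 6.28 ± 1.25 TPM, whereas LRP2 (megalin), which works with CUBN, had 0, 4, 0 and 2 counts in the 4 wells (0.00595 ± 0.00768 TPM). The phosphate carrier SLC34A1 measured 0.00360 TPM on average, and SLC5A1, SLC22A6, SLC22A8, SLC13A3, SLC7A9 and AQP1 had 0 counts in every well. The list summed to 85.1 to 91.4 TPM per well.

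For the thick ascending limb, the detected genes were EGF and CLDN16, a claudin of the magnesium and calcium pathway. CLDN16 measured 37.5, 44.4, 50.9 and 52.05 TPM (46.2 ± 6.71 TPM), with replicate 1 the lowest. UMOD, which encodes uromodulin, the segment's major secreted protein, had 1 count in 1 well and none in the others (0.00752 TPM on average). The salt transporter SLC12A1 and the potassium channel KCNJ1, the segment's defining membrane proteins, had 0 counts, as did CASR and PTGER3. In the distal convoluted tubule list the magnesium genes TRPM6 and CNNM2 measured 2.57 ± 0.234 and 2.21 ± 0.545 TPM, and the other 6 genes, the thiazide-sensitive transporter SLC12A3 among them, had 0 counts.

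Collecting duct genes were present in part. Of the principal cell list, the transcription factors GATA3 and TFCP2L1 measured 28.6 ± 3.07 and 18.95 ± 4.20 TPM, the basolateral water channel AQP3 9.07 ± 0.597 TPM and the sodium channel subunits SCNN1A and SCNN1B 4.05 ± 0.389 and 1.38 ± 0.161 TPM. The channel's other subunit, SCNN1G, measured 0.0451 ± 0.0440 TPM. AQP2, the water channel that vasopressin regulates, measured 0.00446 TPM on average, and AVPR2, its receptor's gene, 0.514 ± 0.0581 TPM. AQP4 and the urea transporter SLC14A2 had 0 counts.

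The intercalated cell list had the highest summed level of the 5 segment lists, 669 to 854 TPM per well, and nearly all of it came from CA2. CA2, the cytosolic carbonic anhydrase, measured 623, 601, 783 and 695 TPM (676 ± 82.1 TPM, n = 4). The proton pump subunit ATP6V1B1 measured 68.1 ± 3.16 TPM. The other 14 genes were under 1 TPM in at least 1 well, and 7 of them, FOXI1, the fate-determining transcription factor, SLC4A1, RHCG, AQP6, ATP6V0A4, ATP6V1C2 and ATP6V1G3, had 0 counts in every well.

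Lists for cells that a kidney line could carry along were also near 0 at their defining genes. The podocyte, fibroblast, endothelial and immune lists each had a smaller share detected than the 56.0% of all protein-coding genes. The podocyte list had 2 of 10 genes detected, PODXL (podocalyxin, also made by polarised epithelia) at 93.3 ± 4.75 TPM and SYNPO at 4.03 ± 0.935 TPM, with NPHS1, WT1, PTPRO and CLIC5 at 0 counts. The fibroblast and mural list had 2 of 12 detected, TAGLN at 1.98 ± 0.554 TPM and ACTA2 at 1.74 ± 0.195 TPM, and summed to 3.99 to 5.11 TPM per well. COL1A1 measured 0.00690 TPM on average, and COL1A2, COL3A1, DCN, LUM, RGS5 and POSTN had 0 counts.

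The endothelial list had 1 of 10 genes detected. This was FLT1, a VEGF receptor, at 24.6, 26.1, 45.1 and 32.2 TPM (32.002 ± 9.36 TPM), with replicate 3 the highest, while PECAM1 measured 0.0142 TPM on average and EMCN, ERG and CLDN5 had 0 counts. The immune list had 2 of 10 detected, among them CD14, a lipopolysaccharide co-receptor, at 8.28 ± 0.533 TPM. PTPRC, the pan-leukocyte marker, and CD3E, AIF1, C1QA, MS4A1 and ITGAM had 0 counts in every well. For the genes with 0 counts in all lists, 3 counts would equal 0.0205 to 0.969 TPM depending on exon length. That range covers counting error only and sets no limit on expression. The records named RPL32 and ATP5ME, symbols of genes that every cell uses, were also at 0.

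**Figure D2:**
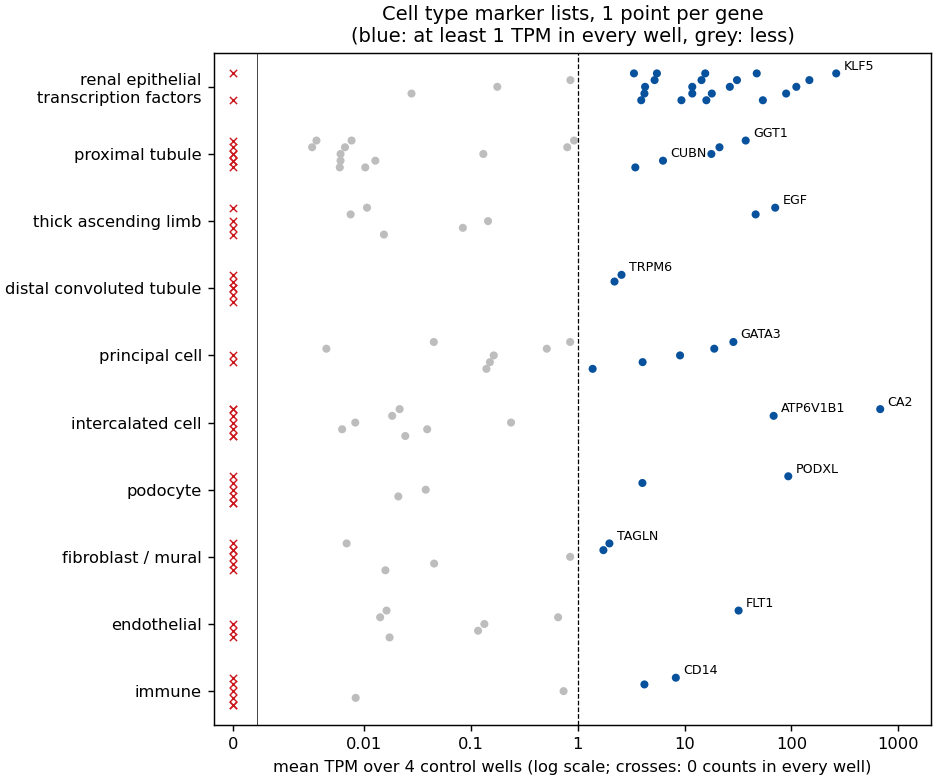
Mean TPM over the 4 control wells (log axis) of each gene in 10 marker lists, with crosses for genes that had 0 counts in every well. Most of the renal epithelial transcription factors lie above 1 TPM (21 of 26), while the segment and other cell type lists each hold 1 to 5 such genes.

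In contrast to the segment markers, transcription factors of renal epithelium were widely detected, with 21 of 26 genes (80.8%). The share of all protein-coding genes was 56.0%. KLF5, a Krüppel-like factor of epithelia and collecting duct, measured 262 ± 6.82 TPM. ELF3, an epithelial ETS factor, measured 111 ± 9.37 TPM.

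PAX8 and PAX2, paired box factors of the renal lineage, measured 91.8, 92.3, 81.5 and 90.8 TPM (89.1 ± 5.11 TPM) and 34.5, 32.04, 26.004 and 30.98 TPM (30.9 ± 3.55 TPM), both lowest in replicate 3. The wells of the 2 genes did not overlap. GRHL2, a regulator of epithelial junction genes, measured 15.98 ± 0.869 TPM and HNF4A, a factor of the proximal tubule, 17.97 ± 4.88 TPM. ESRRB and ESRRG had 0 counts.

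Of 38 HOX genes, which carry positional identity along the body axis, 27 were detected (71.1%), against 56.0% of all protein-coding genes. The highest were HOXA9 at 52.7 ± 2.98 TPM, HOXD8 at 43.3 ± 4.80 TPM, HOXA5 at 34.6 ± 1.94 TPM and HOXC8 at 27.4 ± 2.79 TPM, all from the middle of their clusters. In the D cluster the level dropped from 17.7 ± 0.483 TPM at HOXD9 to 0.311 ± 0.121 TPM at HOXD10 and 0.0212 ± 0.0182 TPM at HOXD11, and HOXD12 and HOXD13 had 0 counts. The A cluster showed a similar step between HOXA10 at 22.1 ± 3.37 TPM and HOXA11 at 0.506 ± 0.169 TPM, but HOXA13 beyond it was detected at 1.16 ± 0.143 TPM. HOXB13, the last gene of the B cluster, was detected too, at 4.65 ± 0.791 TPM.

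Adherens junction genes were detected in 13 of 17 cases (76.5%), against 56.0% of all protein-coding genes, with a list median of 40.2 TPM. CDH1, which encodes E-cadherin, measured 277, 259.6, 285 and 272 TPM (273 ± 10.7 TPM, n = 4; chr5:81341865-81420857), and its wells differed by little. CDH6, a cadherin of the developing kidney, measured 182 ± 13.99 TPM, so CDH1 stood above CDH6 in every well, by a TPM ratio of 1.41 to 1.66. P-cadherin, CDH3, measured 20.7, 20.4, 41.8 and 28.7 TPM (27.9 ± 10.03 TPM) with replicate 3 the highest.

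The neuronal and mesenchymal cadherin CDH2 was near 0 with 0, 3, 13 and 11 counts (0.105 ± 0.0984 TPM). CDH16, a cadherin named for its restriction to kidney, measured 0.729 ± 0.242 TPM. Of the catenins, 3 lay above CDH1 on average: CTNNB1 (beta-catenin) at 619, 632, 770.3 and 685 TPM (677 ± 68.7 TPM), CTNNA1 (alpha-catenin) at 462 ± 17.3 TPM and JUP (plakoglobin) at 409 ± 36.1 TPM. The p120-catenin gene CTNND1 lay below it, at 52.3 ± 2.12 TPM. EPCAM, an epithelial adhesion molecule, measured 785, 737, 653 and 679 TPM (713 ± 58.9 TPM), which was 2.62 ± 0.269 times CDH1, and its wells did not overlap those of CDH1.

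Tight junction genes were detected in 14 of 15 cases (93.3%), against 56.0% of all protein-coding genes, with a list median of 80.8 TPM. CLDN2, which forms a cation-permeable pore, was the highest of the list at 681, 656, 502 and 659.6 TPM (625 ± 82.4 TPM). Replicate 3 lay below the other 3 wells, yet above every well of CLDN7. CLDN7 measured 417 ± 18.97 TPM, the adhesion molecule F11R 363 ± 16.1 TPM and the sealing claudins CLDN1 and CLDN4 217 ± 7.53 and 197 ± 9.14 TPM.

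The other components lay lower. CLDN3 measured 82.6 ± 7.52 TPM, occludin (OCLN) 70.8 ± 5.13 TPM, and the scaffold genes CGN and TJP1 80.8 ± 8.71 and 61.9 ± 2.46 TPM. CLDN8, a claudin of the distal nephron, was the gene that missed detection, at 1.44, 2.18, 0.284 and 0.907 TPM. The ratio of CLDN2 to CLDN1 was 2.89 ± 0.462.

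Desmosome genes were detected in 9 of 12 cases (75%), against 56.0% of all protein-coding genes. PERP, a desmosomal membrane protein, measured 428 ± 21.2 TPM, the cadherin DSG2 189.7 ± 29.9 TPM, the armadillo protein PKP4 152 ± 8.75 TPM and the linker desmoplakin (DSP) 91.5 ± 10.6 TPM. The stratified-epithelium cadherin DSG3 measured 12.3, 15.5, 31.9 and 20.5 TPM (20.1 ± 8.60 TPM), again highest in replicate 3. Polarity genes were detected in 12 of 14 cases (85.7%), also above the share of all protein-coding genes. They were led by the atypical kinase PRKCI at 102 ± 3.62 TPM, PARD6B at 78.8 ± 8.61 TPM, the basolateral LLGL2 at 62.6 ± 8.73 TPM and PATJ at 57.1 ± 2.74 TPM. CRB1 and CRB2 had 0 counts.

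The filament genes combined simple-epithelium keratins with vimentin. KRT8 measured 2525, 2448, 2697 and 2819 TPM (2622 ± 167 TPM) and VIM, the intermediate filament of mesenchyme and of many cultured cells, 2667, 2504, 2983 and 2906 TPM (2765 ± 219.8 TPM; chr2:18621519-18629571). The wells of the 2 genes overlapped and their ratio, VIM to KRT8, was 1.05 ± 0.0375. KRT18, the partner of KRT8, measured 1609 ± 110.4 TPM, KRT19 1396 ± 170.4 TPM and KRT7, a keratin of ducts, 1313 ± 33.9 TPM. KRT5 and KRT14, keratins of stratified epithelia, measured 8.996 ± 1.75 TPM and 4.02, 4.69, 11.8 and 5.60 TPM (6.53 ± 3.59 TPM), the latter highest in replicate 3, and KRT20 and the neurofilament NEFL had 0 counts. KRT8 and KRT18 have many processed copies in mammalian genomes, so their levels carry the uncertainty named above.

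Of 6 transcription factors known for epithelial-mesenchymal transition, 2 were detected (33.3%), against 56.0% of all protein-coding genes. SNAI2 measured 16.3, 17.9, 31.5 and 21.01 TPM (21.7 ± 6.84 TPM) and SNAI1 8.66, 9.20, 20.1 and 10.4 TPM (12.1 ± 5.37 TPM). Replicate 3 was the highest well for both. ZEB1 and ZEB2, which repress CDH1 in other settings, measured 0.105 ± 0.0261 and 0.108 ± 0.0228 TPM, and TWIST1 and TWIST2 had 0 counts.

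**Figure D3:**
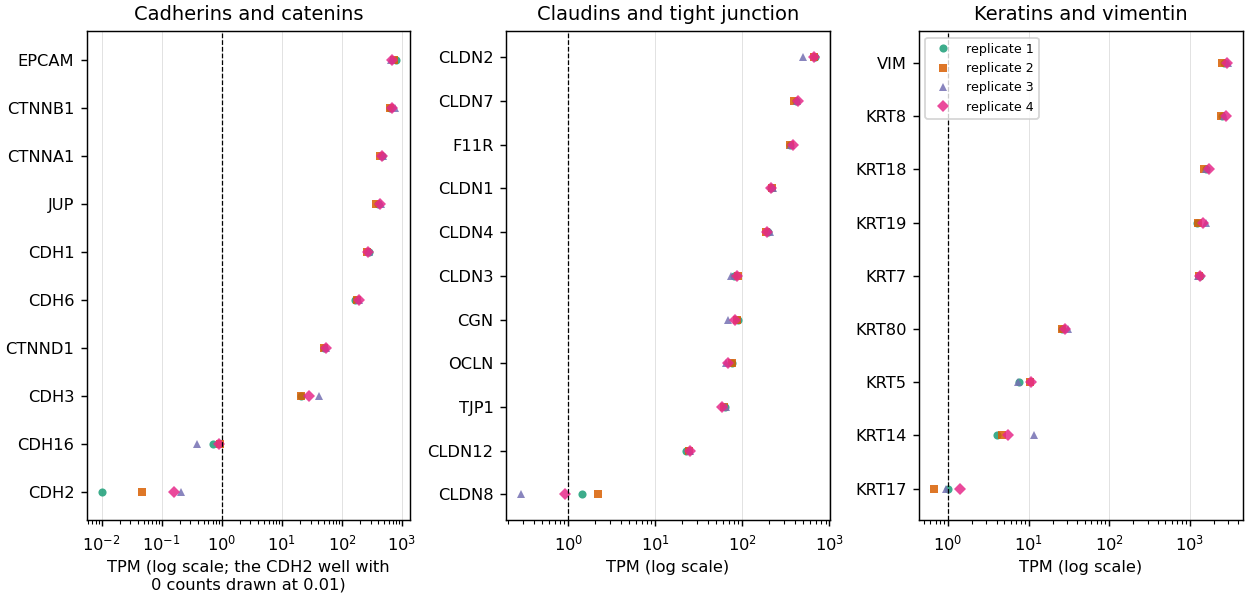
TPM (log axis) of cadherins and catenins, tight junction genes, and keratins with vimentin in each of the 4 control wells, 1 marker per well and a dashed line at 1 TPM. CDH1 lies between 259.6 and 285 TPM while CDH2 stays below 1 TPM, and VIM and KRT8 lie side by side.

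Integrin genes, the receptors for matrix, were detected in 10 of 20 cases (50.0%), a share near that of all protein-coding genes. The beta subunits ITGB1 and ITGB3 measured 295 ± 15.1 TPM and 223, 230.0, 340.4 and 246 TPM (260.0 ± 54.5 TPM). Replicate 3 was the highest ITGB3 well, and the wells of the 2 subunits overlapped. ITGB4, the hemidesmosome subunit, measured 175 ± 32.2 TPM, the collagen-binding ITGA2 155 ± 27.8 TPM and the laminin-binding ITGA3 144 ± 23.4 TPM. ITGAV, the partner of ITGB3, measured 52.2 ± 2.97 TPM. ITGA4, ITGA8, ITGA9 and ITGA11 had 0 counts, and ITGA5, a fibronectin receptor subunit, measured 0.929 ± 0.133 TPM.

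Matrix and basement membrane genes were detected in 14 of 23 cases (60.9%), also near the share of all protein-coding genes. THBS1, a matricellular protein, measured 231 ± 14.9 TPM, the heparan sulfate proteoglycan AGRN 157 ± 7.02 TPM and the laminin chains LAMC1 and LAMB1 145 ± 8.41 and 96.4 ± 4.44 TPM. The laminin chain LAMB3 measured 88.6 ± 18.7 TPM and LAMA5 83.97 ± 12.3 TPM. Fibronectin (FN1) measured 56.2, 65.9, 113 and 79.4 TPM (78.7 ± 24.9 TPM), highest in replicate 3. The network collagens COL4A1 and COL4A2 were low at 4.69 ± 1.22 and 2.99 ± 0.346 TPM, and COL4A3, COL4A4, COL4A5, NID1, LAMA1, LAMA2 and LAMA4 had 0 counts.

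The list of secreted products had 23 of 30 genes detected (76.7%), against 56.0% of all protein-coding genes, and held 3.15% ± 0.0736 of TPM. It includes the membrane proteins MUC1 and HAVCR1 and galectins, which also occur inside cells, so this is not a share of secreted products alone. SPP1, LGALS3 and CLU made the largest parts of it. Next came B2M, the light chain of class I MHC, at 1629 ± 64.96 TPM. Its exon model is short, and with 200 bases taken off every gene length its level became 2728 TPM. STC1, the calcium-regulated hormone stanniocalcin-1, measured 895, 901, 1350.3 and 1153 TPM (1075 ± 219.6 TPM), higher in replicates 3 and 4 than in replicates 1 and 2.

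WFDC2, a protease inhibitor-like protein of ducts, measured 863 ± 54.1 TPM, IGFBP7 524 ± 24.5 TPM and the mucin MUC1 326 ± 18.7 TPM. Of the genes used as markers of tubule injury, HAVCR1 (KIM-1) measured 119, 128, 140.5 and 135 TPM (130.5 ± 9.04 TPM), whereas LCN2 (NGAL) measured 2.001 ± 0.344 TPM. The wells of these 2 genes were far apart. IGFBP2, IGFBP3, IGFBP5 and CXCL8 had 0 counts.

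Of 11 genes for EGF family ligands, 5 were detected (45.5%), and of 21 growth factor receptor genes 13 (61.9%), against 56.0% of all protein-coding genes. EGF was the highest, at 72.3, 77.9, 59.9 and 71.4 TPM (70.4 ± 7.55 TPM, n = 4; chr32:9723676-9817337), and replicate 3 was its lowest well. HBEGF, the heparin-binding ligand, measured 11.6, 16.1, 16.9 and 16.6 TPM (15.3 ± 2.49 TPM), the lowest well being replicate 1. EGF stood above HBEGF in every well, at 4.73 ± 1.13 times its TPM.

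NRG1, a ligand of ERBB3 and ERBB4, measured 12.9 ± 1.23 TPM and TGFA, an EGFR ligand, 9.39 ± 0.442 TPM. EREG, another EGFR ligand, measured 6.58, 8.29, 21.004 and 12.6 TPM (12.1 ± 6.44 TPM), so its wells spanned those of HBEGF, NRG1 and TGFA. HBEGF and NRG1 overlapped as well, while every well of both lay above those of TGFA. EPGN measured 0.120 ± 0.0454 TPM, and AREG, BTC, NRG3 and NRG4 had 0 counts, where 3 counts would equal 0.178 TPM for AREG.

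Among the receptors, MET, which binds hepatocyte growth factor, was the highest of the list at 238, 256, 298 and 282 TPM (268 ± 26.4 TPM), while its ligand HGF had 0 counts. ERBB3, which has little kinase activity of its own, measured 173, 176, 145 and 159 TPM (163 ± 14.3 TPM), and its partner ERBB2, which has no known ligand, measured 71.3, 68.9, 62.4 and 69.5 TPM (68.1 ± 3.88 TPM).

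EGFR itself measured 6.62, 7.17, 8.05 and 7.67 TPM (7.38 ± 0.621 TPM, n = 4) and ERBB4 5.004, 5.20, 5.07 and 4.90 TPM (5.05 TPM on average). The wells of the 4 ERBB genes did not overlap in the order ERBB3, ERBB2, EGFR and ERBB4. The TPM ratio of ERBB3 to EGFR was 22.4 ± 3.70 and that of ERBB2 to EGFR 9.30 ± 1.25. Among all detected genes the mean of EGFR lay below the 25th percentile of 8.15 TPM.

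The other 8 receptor genes of the list, INSR among them, averaged under 1 TPM. Of the detected ones, FGFR2 measured 84.97 ± 6.001 TPM, the ephrin receptor EPHA2 60.8, 68.5, 112 and 94.4 TPM (83.9 ± 23.6 TPM), and IGF1R 48.3 ± 1.72 TPM. FGFR3, FGFR4 and FGFR1 followed at 18.7 ± 2.35, 11.5 ± 0.690 and 10.3 ± 0.706 TPM. INSR, the insulin receptor gene, had 0 counts in every well, where 3 counts would equal 0.0232 TPM.

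Other growth factor genes were detected in 15 of 24 cases (62.5%), a share near the 56.0% of all protein-coding genes. VEGFB measured 59.1 ± 2.36 TPM and VEGFA 14.3 ± 2.94 TPM, and VEGFC measured 29.7 ± 1.57 TPM. Of the bone morphogenetic proteins, BMP4 measured 46.8 ± 7.07 TPM and BMP7, a tubule-derived member, 23.7, 25.3, 47.02 and 33.2 TPM (32.3 ± 10.7 TPM), highest in replicate 3. TGFB2 and TGFB1 measured 14.3 ± 2.14 and 7.80 ± 1.26 TPM. The wells of TGFB2 all lay above those of TGFB1. IGF1, HGF, WNT9B and GDNF had 0 counts.

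**Figure D4:**
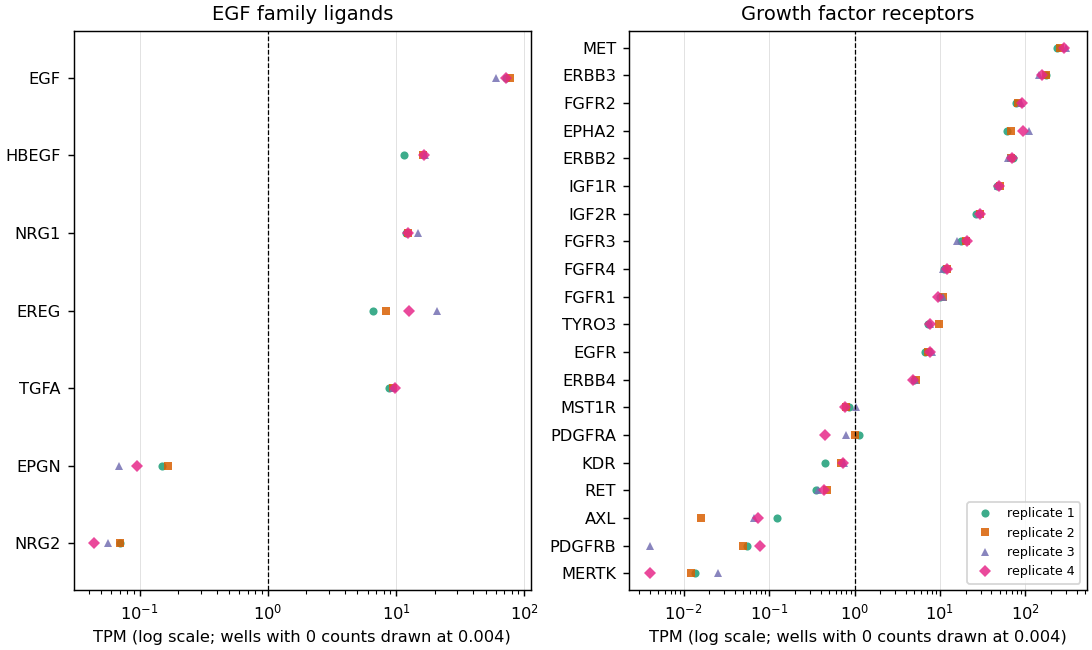
TPM (log axis) of EGF family ligands and growth factor receptors with at least 1 count, in each of the 4 control wells, with a dashed line at 1 TPM. EGF lies above the other ligands in every well, and EGFR, between 6.62 and 8.05 TPM, lies below ERBB2 and ERBB3.

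All 22 proliferation genes were detected, against 56.0% of all protein-coding genes, with a list median of 103 TPM. Cell division itself was not measured. RRM2, a subunit of ribonucleotide reductase, measured 508 ± 21.97 TPM, the mitotic cyclin CCNB1 273 ± 21.5 TPM, the replicative helicase subunit MCM6 232 ± 17.9 TPM and the topoisomerase TOP2A 177 ± 12.8 TPM. MKI67 (Ki-67) measured 106, 116, 106 and 113 TPM (110.3 ± 5.33 TPM), with all wells close together. The lowest member, CCNE2, measured 11.6 TPM on average.

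Of the genes that drive entry into the cycle, 8 of 9 were detected (88.9%), against 56.0% of all protein-coding genes. CDK4 measured 328 ± 25.5 TPM, MYC 208 ± 36.1 TPM, the D-type cyclins CCND2, CCND3 and CCND1 64.7 ± 15.4, 59.8 ± 4.89 and 39.4 ± 11.02 TPM, and MYCN had 0 counts. The list of genes that restrain the cycle had 15 of 16 detected (93.8%), also above that share. Among them were the kinase inhibitors CDKN1B and CDKN1A at 119 ± 7.90 and 99.996 ± 17.4 TPM. The list also holds MDM2, a ubiquitin ligase that works against such a brake, at 147 ± 9.80 TPM. CDKN2A, which encodes p16 and ARF, was the exception with 0 counts in every well, where 3 counts would equal 0.151 TPM.

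All 18 genes of the NRF2 and antioxidant list were detected, against 56.0% of all protein-coding genes. Besides target genes the list holds NFE2L2, the gene of NRF2 itself, and its repressor KEAP1. Behind PRDX1 and NQO1 came thioredoxin (TXN) at 1632 ± 48.6 TPM and the pentose phosphate enzyme PGD at 922 ± 26.5 TPM. Lower members varied more between wells: GCLC, which makes glutathione precursors, measured 439.7, 474, 264 and 323 TPM (375 ± 98.5 TPM), and the haem-degrading HMOX1 86.8, 73.998, 37.3 and 44.8 TPM (60.7 ± 23.5 TPM). Both were lower in replicates 3 and 4 than in replicates 1 and 2, with no overlap between those pairs of wells.

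Annexin and S100 genes were detected in 19 of 23 cases (82.6%), against 56.0% of all protein-coding genes. Their list median was 151 TPM. S100A10, the partner of ANXA2, measured 1951 ± 43.5 TPM, S100A11 745 ± 27.3 TPM and ANXA13, an annexin of gut and kidney epithelium, 356 ± 14.6 TPM. S100B had 0 counts. Glycolysis genes were detected in 20 of 21 cases (95.2%), also above the share of all protein-coding genes. They were led by GAPDH at 2364 ± 58.6 TPM, ENO1 at 1103 ± 56.7 TPM and PGAM1 at 779 ± 25.4 TPM. The glucose carrier SLC2A1 measured 429 ± 72.3 TPM, the hepatic and proximal tubule carrier SLC2A2 had 0 counts, and LDHA stood at 1.15 ± 0.0763 times LDHB in TPM.

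General transport genes were detected in 20 of 25 cases (80.0%), against 56.0% of all protein-coding genes. The sodium pump beta subunits ATP1B1 and ATP1B3 measured 589.7 ± 34.9 and 121 ± 6.13 TPM and the regulatory FXYD2 61.1 ± 12.1 TPM. Of the other genes, the scaffold SLC9A3R1 (NHERF1) measured 167 ± 10.1 TPM, the basolateral cotransporter SLC12A2 54.1 ± 7.25 TPM and the drug efflux pump ABCB1 12.3 ± 0.755 TPM. CFTR had 0 counts.

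The 12 genes with the highest coefficient of variation between wells, among genes averaging at least 1 TPM and 100 counts, were all highest in replicate 3. The semaphorin SEMA7A measured 2.33, 2.87, 12.9 and 5.72 TPM, the glycosyltransferase GALNT16 1.03, 1.18, 4.28 and 1.59 TPM and the unnamed locus LOC119863891 11.2, 10.96, 37.8 and 11.3 TPM. Without replicate 3 their means of 5.96, 2.02 and 17.8 TPM became 3.64, 1.27 and 11.2 TPM.

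RGS2, a brake on G protein signalling, measured 61.6, 91.2, 288 and 141 TPM, the focal adhesion protein TNS4 49.1, 48.7, 154 and 90.4 TPM and the phosphatase DUSP2 19.4, 23.2, 57.4 and 35.5 TPM. For these genes replicate 4 was the next highest well. The secreted proteoglycan ESM1 measured 6.89, 9.23, 26.5 and 16.2 TPM and the sulfatase SULF1 1.68, 1.69, 4.87 and 1.83 TPM. The surface mucin MUC16 measured 2.25, 3.80, 9.32 and 7.62 TPM and the hyaluronan-binding CEMIP 0.846, 1.16, 3.08 and 1.95 TPM. KRT14 and EREG, described above, completed the group. The median coefficient of variation was 7.40% over 11585 genes, against 50.5 to 81.7% in these 12. Of the 100 most variable genes, 66 were highest in replicate 3, 17 in replicate 2, 12 in replicate 1 and 5 in replicate 4. What moved these genes in replicate 3 was not tested.

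**Figure D5:**
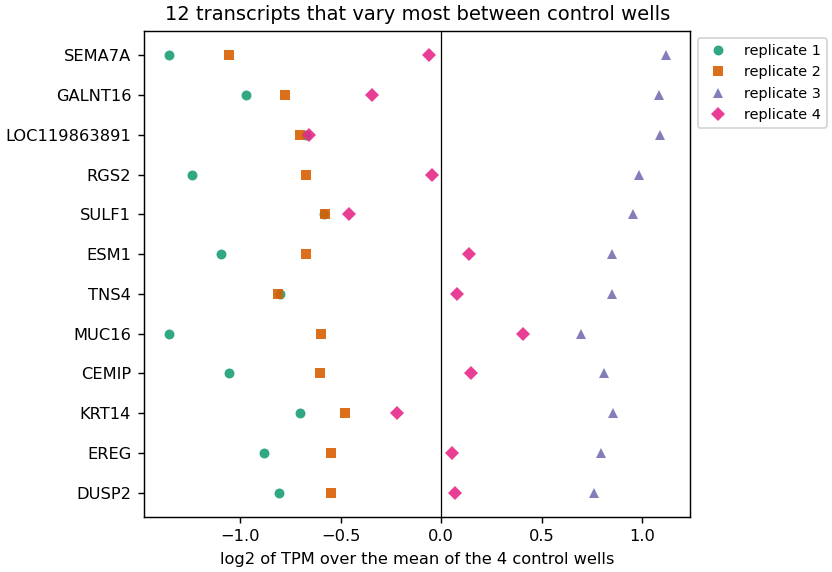
Log2 of each well's TPM over the mean of the 4 control wells, for the 12 transcripts that varied most, with 1 marker per well. Replicate 3 is the highest well in all 12.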

How the data were processed

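The authors deposited 1 table of unnormalised read counts by gene, with a column of exon lengths. Per the submitters' processing notes the authors used FastQC 0.11.8, Trim Galore 0.6.5, STAR 2.7.3a and featureCounts of the Subread package. The genome build, whether counting used strand, and how multiply mapped reads were treated are not given in the sources used here. Coordinates are those of the table: 37291 gene symbols matched RefSeq's UU_Cfam_GSD_1.0 and 37291 had identical start and end there. The table held 0 mitochondrial genes. Exon bases were shared with another gene on the same strand for 528 genes and on the opposite strand for 7108. Of the named genes with counts, this holds for HOXA5 (same strand) and, on the opposite strand, for CLU, PRDX1, GGT1, CUBN, SCNN1B, SYNPO, IGFBP7, THBS1, COL4A1, IGF1R, TGFB2, TOP2A, CCNE2, CCND3, CDKN1B, CDKN2B, MTAP, PGD, ZEB2 and EPGN, whose counts may include reads of their neighbour. It also holds for named genes at 0 counts: AQP6, ATP6V0A4, ATP6V1C2, C1QA, CFTR, COL4A3, ERG, HOXD12, IGF1, ITGA4, KRT20, NRG3, PTGER3, RHCG, SLC12A1 and SLC2A2, which may have lost reads to it.

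From the 4 control columns, TPM was computed with the exon lengths over all 37952 genes. The wells were also compared with the common dispersion of edgeR 4.0.16 in R 4.3.3 after filterByExpr, which gave a biological coefficient of variation of 9.997% over 13860 genes. No groups were compared, and no p-values are given, since a sign-flip test over 4 wells cannot pass a threshold of 0.05. Genes were said to differ only where their wells did not overlap. At 1000 bases of exon, 1 count was worth 0.0591 to 0.0698 TPM.

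The 34 gene lists and the genes to describe were chosen with earlier results of these data known. Named by rule were the 20 highest genes outside ribosomal proteins and unnamed loci, the 4 highest members and the members at 0 counts of each list, the 12 most variable genes, 7 markers and 13 lineage genes. Some genes that the rule names are not reported here. Other list members were named after their values were seen. Of the list symbols, 5 were not matched in the table. Alternatives were another detection threshold, effective lengths, TMM-scaled or protein-coding TPM, other dispersion settings and leaving out each well. Calculations were tested on simulated data.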

Additional observations from a re-analysis of the deposited data

Results flagged for a closer look

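In 149 sets of 4 wells (the named genes detected in every well, and the shares of TPM), a single well stood far from the other 3 in 13: its gap to the nearest well, divided by the whole range, was above Dixon's 95% critical value. Chance gives about 7.45 of 149 if the sets are independent and not picked by their spread. Neither holds here, since all sets share the same wells and some come from the 12 most variable genes. Those 12 were picked for their spread and were all highest in replicate 3. LOC119863891 and SULF1, both flagged, are among them. Replicate 3 was the distant well in 10 of the 13, a count that in part restates that choice.

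Replicate 3 was high for SNAI1 at 20.1 TPM (8.66 to 10.4 in the others), the extracellular sulfatase SULF1 at 4.87 TPM (1.68 to 1.83), LOC119863891 at 37.8 TPM (10.96 to 11.3) and the glycolytic PGAM1 at 817 TPM (763 to 768). It was low for CLDN2 at 502 TPM (656 to 681), PAX8 at 81.5 TPM (90.8 to 92.3), FBP1 at 14.6 TPM (18.5 to 19.1), PATJ at 53.02 TPM (58.1 to 58.9) and the sodium pump subunit ATP1B1 at 538 TPM (599.8 to 612). The share of TPM held by the 100 most abundant genes was 24.3% in that well and 24.9 to 24.99% in the others.

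Replicate 4 was low for NQO1 at 2689 TPM (2889 to 2928) and high for PKP4 at 165 TPM (147 to 148). Replicate 1 was low for HBEGF at 11.6 TPM (16.1 to 16.9).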

How the results depend on the processing

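No paired analysis was possible because only 1 group was described and no result came from a test between groups. With at least 5 TPM required in every well, the members detected became 0 for the distal convoluted tubule, 3 for principal cells, 1 for podocytes, 0 for fibroblasts, 1 for immune cells and 15 for the HOX genes; the other lists stayed within 1.5 times. With effective lengths the shares of TPM were 27.1% for the 100 most abundant genes, 12.9% for ribosomal proteins, 1.82% for oxidative phosphorylation, 0.823% for glycolysis and 0.747% for the proteasome. As shares of counts they were 4.83% for the 10 and 17.2% for the 100 most abundant genes, 4.17% for ribosomal proteins, 0.839% for oxidative phosphorylation, 0.836% for glycolysis, 0.555% for the proteasome and 1.05% for annexins and S100 proteins. Over protein-coding genes alone they were 6.64, 25.3, 11.4, 1.71, 0.937, 0.805 and 1.91% in the same order. Detected genes numbered 13439 at 0.5 TPM, 10225 at 5 TPM and 12712 to 12755 with 1 well left out. The biological coefficient of variation was 8.575 to 11.004% with 1 well left out, lowest without replicate 3. Of 141 named levels, 92 moved by over 1 SD with effective lengths and 0 with TMM scaling. Levels between genes rest on the deposited exon lengths, and a low gene at this depth rests on few counts.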

Other observations

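Genes of the primary cilium, the sensory organelle on the apical face of tubule cells, were all detected (16 of 16, list median 9.88 TPM). Of all protein-coding genes, 56.0% were detected. The transport subunit IFT20 measured 35.7 ± 2.48 TPM, the basal body gene BBS4 19.6 ± 2.90 TPM, the motor KIF3B 17.7 ± 0.697 TPM and TTC21B 14.9 ± 1.15 TPM. The polycystin genes PKD2 and PKD1, mutated in dominant polycystic kidney disease, measured 12.3 ± 0.616 and 8.57 ± 1.53 TPM, and PKHD1 of the recessive form 1.67 ± 0.116 TPM. Proteasome genes were detected in 36 of 39 cases (92.3%) and those of oxidative phosphorylation in 66 of 70 (94.3%), both also above 56.0%. PSMB4 averaged 561 TPM and ATP5F1B 1338 TPM.

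INSR (chr20:52425027-52560283) and CDKN2A (chr11:41337054-41366301) had 0 counts in every well although genes beside them had counts. Next to INSR, ARHGEF18 measured 8.16 ± 1.21 TPM and PEX11G 2.76 ± 0.419 TPM, while MBD3L1, 3 genes away on the other side, was also at 0. Next to CDKN2A, CDKN2B measured 19.3 ± 4.16 TPM and MTAP 2.29 ± 0.534 TPM. Records that carry the symbols of genes needed by every cell, ATP5ME and RPL32, were also at 0 counts. The second RPL32 record was at 2452 TPM, and the ATP5ME record is a single block of 216 exon bases. A count of 0 for a record thus does not by itself show that the gene was silent.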
